A study of Sus scrofa with 35 samples.

Results

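The cytosolic ribosomal proteins were described in whole blood of 35 castrated male growing pigs raised in Guadeloupe, each measured on 1 porcine 60-mer microarray in 1 colour. Members were the array probes whose gene name is RPL or RPS followed by a digit, RPSA, RPLP0, RPLP1 or RPLP2, with the RPS6K kinases left out. The rule found 300 of the 60305 distinct probes, under 85 gene names, and 293 of them, under 82 names, had log2 signals in the table of 39072 probes that the authors deposited. Of these, 150 probes named 39 large subunit genes and 121 probes named 30 small subunit genes. The other 22 probes carried 13 names that match the rule but are paralogues, pseudogenes of human naming or partner proteins, such as RPL7L1, RPS27L, RPL13AP3 and RPS19BP1. The 7 member probes outside the table were well above background on at most 2 of 35 arrays and are not analysed here. No member probe was saturated on any array.

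The pigs came from 3 genetic types: Creole (CR), Large White (LW) and their F1 cross (F1). Thermoneutral (TN) pigs were kept at 24 °C. Heat stress (HS) pigs carry a label of 30 °C, while the protocol text gives 32 °C for 5 d. The groups held 5 CR TN, 6 CR HS, 6 F1 TN, 6 F1 HS, 6 LW TN and 6 LW HS pigs. Blood was taken at slaughter, so every value is a mix of the cells of blood, and fewer cells of a type cannot be told apart from less RNA per cell. The study included littermates, and the labels used here do not say which pigs shared a litter, pen or slaughter day. The paper states that TN pigs were slaughtered before the temperature was raised and HS pigs after days at 32 °C. Pens, too, were slaughtered at either 24 °C or 32 °C. Slaughter date, pen and age thus go with climate, as does the lower feed intake that the paper reports in HS. Their part in the differences between HS and TN pigs was not tested.

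The cytosolic ribosome reads mRNA on its small subunit and joins amino acids on its large subunit. Each subunit is built from ribosomal RNA and a set of proteins that are needed in equal numbers, and most of these proteins are held in the particle as single copies. Their mRNAs begin with a terminal oligopyrimidine (TOP) tract, which places their translation under the control of mTOR through LARP1 and, less directly, the 4E-BP proteins. Mammalian genomes hold many processed copies of these genes, so a probe named for one gene can also bind transcripts of near-identical copies, and each value below belongs to a probe first and to a gene only through its name. In blood the young red cell is a known site of ribosomal protein mRNA, since reticulocytes keep translating globin after the nucleus is lost.

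Several properties of the arrays move with the groups. The 75th percentile of the processed signal was lowest in F1 TN, at 149.9 ± 28.3 (SD, n = 6), against 237.9 ± 35.6 (SD, n = 6) in F1 HS and 202.1 to 227.8 in the other 4 groups. The labelled tissue fits its defining markers, with HBB and AHSP of red cells at mean log2 signals of 17.44 and 17.76. The mean log2 signal of the erythroid marker list, of which 15 of 24 names were in the table, ranged from 10.37 to 12.17 in F1 TN and from 9.07 to 10.71 in F1 HS, and 7 of its 15 genes fell and 1 rose in HS. The T cell list, with 14 of 20 names, ranged from 8.70 to 9.10 in F1 TN and from 8.86 to 9.54 in F1 HS, and 4 of its genes rose. Of the other marker lists, 3 of 7 B cell genes and 3 of 10 monocyte genes rose, 2 of 9 cytotoxic genes fell, and none of 5 platelet or 10 neutrophil genes passed the test. The part of these lists in the results below was not tested beyond the fits that carry the erythroid or T cell mean as a covariate.

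Some probe sequences are shown first, since each value belongs to a probe and not to a whole gene. All are 60 bases long, 5′ to 3′, as the scanner files list them. The first 3 belong to RPL6, a large subunit protein, and start at bases 617, 622 and 644 of its transcript. Capitals mark the longest run that each of the first 2 shares with the probe at 644, and in that probe the run shared with the probe at 622.
RPL6 A_72_P729538: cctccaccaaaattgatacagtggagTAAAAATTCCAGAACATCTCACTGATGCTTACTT
RPL6 A_72_P756548: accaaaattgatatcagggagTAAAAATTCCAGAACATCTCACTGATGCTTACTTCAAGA
RPL6 A_72_P720998: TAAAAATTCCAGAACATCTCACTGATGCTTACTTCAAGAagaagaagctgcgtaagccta
The next pair shows 2 names read from opposite strands. Capitals mark the 23 bases of the RPS2 probe that are the reverse complement of the RPS2P32 probe, so these names cannot be read as 2 copies of one measurement. Their CR TN medians were 8.19 for RPS2 and 14.64 for RPS2P32. Only the dimmer RPS2 probe is counted in the small subunit below. Which of them reads the RPS2 mRNA was not checked.
RPS2 O3817: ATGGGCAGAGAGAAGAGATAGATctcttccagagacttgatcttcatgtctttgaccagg
RPS2P32 O2000: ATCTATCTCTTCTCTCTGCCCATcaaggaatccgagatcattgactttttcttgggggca
The probe named RPS10P5 is, in all 60 bases, the same as an RPS10 probe. Over the 35 arrays the signal of the RPS10 copy minus that of its twin averaged -0.14 on the log2 scale, with an SD of 0.0678 and a largest absolute difference of 0.279, which is the size that 2 spots of one sequence can differ by on these arrays.
RPS10P5 O9731: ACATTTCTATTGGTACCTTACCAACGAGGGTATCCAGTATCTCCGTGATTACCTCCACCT
The last 3 are the RPS25 probe, which was the one member called between breeds, the brightest RPS24 probe, whose signal spread widely between pigs, and the RPL38 probe that fell in HS. They carry no capitals.
RPS25 O13202: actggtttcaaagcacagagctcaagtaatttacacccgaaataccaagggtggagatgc
RPS24 A_72_P756182: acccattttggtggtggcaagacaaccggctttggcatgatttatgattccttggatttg
RPL38 O12413: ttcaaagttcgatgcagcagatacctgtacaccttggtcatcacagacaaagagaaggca

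Across the 6 groups the mean level of either subunit stayed within a narrow band. Each gene was represented by its brightest probe, and these were averaged within a pig. The large subunit mean in CR was 13.75 ± 0.12 (SD, n = 5) under TN and 13.78 ± 0.22 (SD, n = 6) under HS. F1 gave 13.65 ± 0.18 under TN and 13.65 ± 0.17 under HS, and LW gave 13.75 ± 0.21 and 13.80 ± 0.17. The small subunit mean ran from 13.80 ± 0.15 in F1 HS to 13.95 ± 0.16 in LW HS. For both subunits the highest and lowest group means differed by 0.15 on the log2 scale, which is below the SD between pigs in 5 of the 6 groups for the large subunit and in 4 of them for the small. The lowest pig of any group was at 13.40 for the large subunit and the highest at 14.03, and the ranges of all groups overlapped. F1 pigs held the lowest group means for both subunits in both climates.

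**Figure D1:**
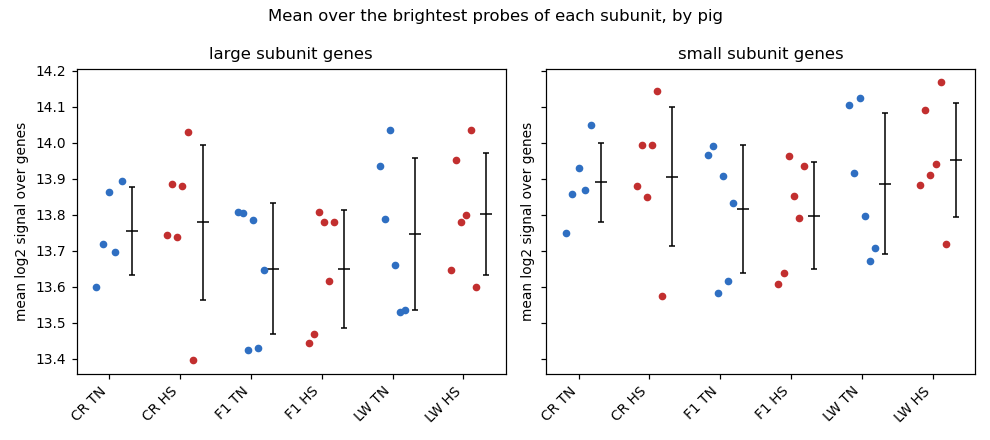
Mean log2 signal over the brightest probes of the large subunit (left) and small subunit (right) genes, with 1 point a pig in each of the 6 groups, TN in blue and HS in red, and the group mean ± SD in black. The ranges of the groups overlap, and group means lie between 13.65 and 13.80 on the left and between 13.80 and 13.95 on the right.

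HS and TN pigs were compared to ask how the members differed between the climates in all 3 breeds together. More member probes rose than fell: 66 of 293 rose and 7 fell (limma, additive model of breed and climate, adjusted p below 0.05 over the whole table). Over all 39072 probes 20.1% rose and 14.7% fell, so the members' share of rises, 22.5%, was near the background, while their share of falls was 2.39%. The first of these depends on the scaling: with arrays scaled to their 75th percentile 22 members rose and 5 fell, where 19.5% and 16.4% of all probes did. The median log2 difference was 0.08 over the members and 0.06 over all probes. In the large subunit 31 of 150 probes rose and 2 fell, with a median of 0.08, and in the small subunit 30 of 121 rose and 3 fell, with a median of 0.09. Called rises were small, from 0.13 to 0.34 on the log2 scale, and called falls ran from -0.20 to -0.82.

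Counted as genes by the brightest probe, 18 of 82 rose and 3 fell, where 22.8% and 16.7% of 8812 genes with a known symbol did. The rises held 9 of 39 large subunit genes, among them RPL3, RPL7A, RPL8, RPL18, RPL27, RPL27A, RPL28 and RPL29. They also held 7 of 30 small subunit genes, among them RPS3, RPS4, RPS12, RPS14, RPS18 and RPS20. RPL38 was the one subunit gene whose brightest probe fell. Of the 13 other names, RPL7L1 and RPS19BP1 rose and RPS27L and RPL13AP3 fell.

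**Figure D2:**
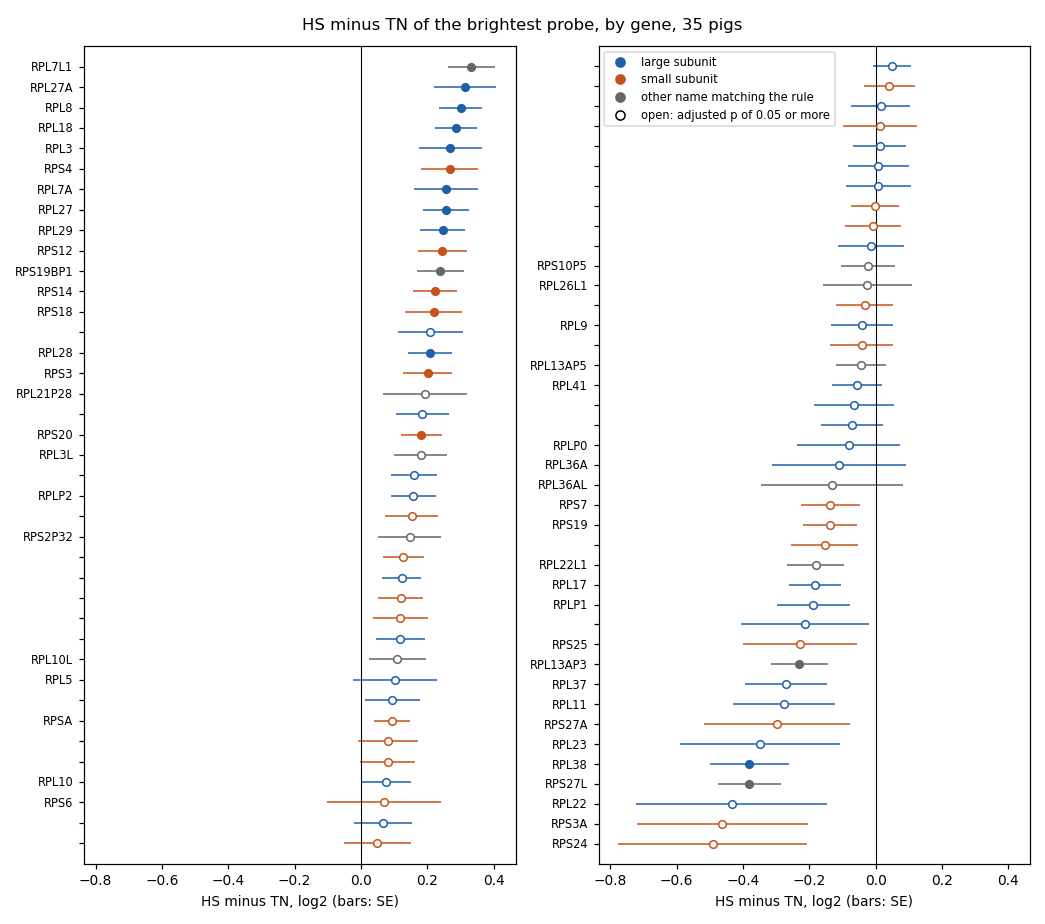
HS minus TN difference on the log2 scale (x axis) for the brightest probe of 79 genes (y axis, with some of the genes named, ordered by the difference, the higher part of the order in the left panel), with bars of 1 SE from the additive limma fit over 35 pigs. Colours give the subunit or other name, and filled points passed the adjusted p threshold: 16 lie right of 0 and 3 left of it, and the lowest points, RPS24, RPS3A and RPL22, are open and have wide bars.

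RPL8 and RPL3 are large subunit proteins that reach towards the centre where peptide bonds form, and RPL27A is another protein of that subunit. For RPL8 the CR TN pigs gave log2 signals of 16.45, 16.46, 16.58, 16.77 and 16.80. The CR HS pigs ran from 16.60 to 17.21 with a median of 16.98. All but the lowest CR HS pig lay above the CR TN pigs. In F1 the TN pigs ran from 16.38 to 16.72 (median 16.65) and the HS pigs from 16.60 to 17.36 (median 16.91), and in LW from 16.37 to 16.82 (median 16.63) and from 16.78 to 16.94 (median 16.85). Both pairs overlap at their edges. RPL8 rose by 0.30 ± 0.06 (SE, adjusted p = 0.00166), and its estimates within CR, F1 and LW were 0.35, 0.35 and 0.20.

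RPL27A gave 16.56, 16.57, 16.68, 16.85 and 16.95 in CR TN and 16.23 to 17.62 in CR HS. In F1 it ran from 16.36 to 16.57 in TN and from 16.52 to 17.32 in HS, and in LW from 16.60 to 16.79 and from 16.49 to 17.20. HS pigs were spread more widely than TN pigs in each breed, with the lowest HS pig below the highest TN pig throughout. RPL27A rose by 0.31 ± 0.09 (SE, adjusted p = 0.0112). RPL18 rose by 0.29 ± 0.06 (adjusted p = 0.00208), RPL3 by 0.27 ± 0.09 (adjusted p = 0.0272) and RPL7A by 0.26 ± 0.10 (adjusted p = 0.0382). RPL27 rose by 0.26 ± 0.07 (adjusted p = 0.00669), and RPL28 and RPL29 by 0.21 and 0.25. The RPL3 call was lost without CR TN replicate 2 (adjusted p = 0.052), and that of RPL7A was lost in 18 of 35 fits that left out 1 pig.

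RPS4, a small subunit protein, was the largest rise on that side, at 0.27 ± 0.09 (SE, adjusted p = 0.0166). Its medians in TN and HS were 14.70 and 14.94 in CR, 14.37 and 15.00 in F1, and 14.77 and 14.72 in LW, so the LW pigs did not show the rise in their medians. In F1 its TN pigs ran from 14.09 to 15.05 and its HS pigs from 14.71 to 15.19. One F1 TN pig, at 15.05, lay inside the HS range and the other 5 lay below it. RPS3, which lines the mRNA entry channel, rose by 0.20 ± 0.07 (adjusted p = 0.0343), a call lost in 8 of 35 fits without 1 pig. RPS12, RPS14 and RPS18 rose by 0.25, 0.22 and 0.22, and the RPS18 call (adjusted p = 0.0456) was lost in 21 of those fits. RPS20, among the 3 brightest members with a mean log2 signal of 17.31, rose by 0.18 ± 0.06 (adjusted p = 0.0226) in the authors' scale but gave -0.02 (adjusted p = 0.868) when arrays were scaled to their 75th percentile.

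Members with special roles outside or at the edge of the particle did not move as a block. RPLP0, RPLP1 and RPLP2 form the stalk that recruits translation factors. Their differences were -0.08 ± 0.16 (SE, adjusted p = 0.707), -0.19 ± 0.11 (adjusted p = 0.183) and 0.16 ± 0.07 (adjusted p = 0.0659), none past the threshold. RPL5 and RPL11, which carry the 5S RNA and can bind MDM2, gave 0.10 ± 0.13 (adjusted p = 0.54) and -0.28 ± 0.15 (adjusted p = 0.154). RPS6, the substrate of the S6 kinases, gave 0.07 ± 0.17 (adjusted p = 0.771). RPS27A, made as a fusion with ubiquitin, gave -0.30 ± 0.22 (adjusted p = 0.294), RPSA 0.09 ± 0.05 (adjusted p = 0.176) and RPL10, which joins the large subunit late, 0.08 ± 0.08 (adjusted p = 0.436). The RPS6 estimate has a wide error, and its lowest pigs, at 12.69 and 12.82, were both CR.

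RPL38, a small protein of the large subunit, fell by 0.38 ± 0.12 on the log2 scale (SE, adjusted p = 0.014). The CR TN pigs gave 14.43, 14.67, 14.78, 14.83 and 15.08, and CR HS pigs ran from 13.70 to 14.70 (median 14.43). F1 TN pigs ran from 14.15 to 15.28 (median 14.61) and F1 HS pigs from 13.54 to 14.36 (median 14.14). LW TN pigs ran from 14.25 to 15.22 and LW HS pigs from 14.02 to 14.94. The groups overlap in all 3 breeds, and the LW estimate was -0.15 against -0.44 in CR and -0.55 in F1. The second RPL38 probe gave -0.09 ± 0.25 (adjusted p = 0.798).

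Among the names that are no core subunit gene, RPL7L1, a nucleolar relative of RPL7 that takes part in ribosome assembly, rose by 0.33 ± 0.07 (SE, adjusted p = 0.00166), and all 4 of its probes rose. Its F1 groups did not overlap, with TN pigs from 11.77 to 12.39 and HS pigs from 12.52 to 12.91. RPS27L, a paralogue of RPS27 and a known p53 target, fell by 0.38 ± 0.09 (adjusted p = 0.00348). RPS19BP1, which binds RPS19, rose by 0.24 ± 0.07 (adjusted p = 0.0104), and RPL13AP3 fell by 0.23 ± 0.09 (adjusted p = 0.0355), a call lost in 8 of 35 fits without 1 pig. The tissue-restricted paralogues RPL3L and RPL10L gave 0.18 ± 0.08 (adjusted p = 0.0738) and 0.11 ± 0.09 (adjusted p = 0.328), and their probes may read the broadly expressed genes: the RPL10L probe shares sequence with an RPL10 probe. RPL22L1, RPL26L1 and RPL36AL gave -0.18, -0.02 and -0.13. RPL13AP5, RPL21P28, RPS10P5 and RPS2P32 gave -0.04, 0.19, -0.02 and 0.15, and none of these 7 passed the test.

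RPS20 and RPLP2 were among the 3 brightest members, with mean log2 signals of 17.31 and 17.15, and the dimmest were RPL41, RPS7 and RPL9, at 5.65, 5.74 and 6.91. These signals depend on how well each probe binds and were not compared between genes. RPL41 gave -0.06 ± 0.07 (SE, adjusted p = 0.576), RPS7 -0.14 ± 0.09 (adjusted p = 0.228) and RPL9 -0.04 ± 0.09 (adjusted p = 0.748).

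Genes that share the TOP control of ribosomal proteins, mostly elongation and initiation factors, were counted by the same test. Of 19 measured, 8 rose and none fell, with a median of 0.15, where 22.8% of genes with a known symbol rose and 16.7% fell, with a median of 0.06. EEF1G rose by 0.31 ± 0.08 (SE, adjusted p = 0.00497), PABPC1, the poly(A)-binding protein, by 0.32 ± 0.06 (adjusted p = 0.00159), and GNB2L1, whose product RACK1 sits on the small subunit, by 0.31 ± 0.07 (adjusted p = 0.00205). FAU, which encodes a small subunit protein fused to a ubiquitin-like domain, gave 0.10 ± 0.07 (adjusted p = 0.236). Of 12 measured genes that control this class, 2 rose and 3 fell, with a median of 0.08. MTOR and its target kinase RPS6KB1 rose by 0.26 ± 0.06 (adjusted p = 0.00391) and 0.31 ± 0.09 (adjusted p = 0.0109). EIF4EBP1 and EIF4EBP2, which hold back cap-dependent initiation, fell by 0.54 ± 0.14 (adjusted p = 0.00511) and 0.49 ± 0.14 (adjusted p = 0.00692), and TSC2, a brake on mTOR, fell by 0.36 ± 0.14 (adjusted p = 0.0435). In the order CR, F1 and LW, the estimates were -0.53, -1 and -0.08 for EIF4EBP1 and -0.27, -0.995 and -0.177 for EIF4EBP2. Those of TSC2 were -0.235, -0.647 and -0.192. MTOR gave 0.165, 0.371 and 0.219, and RPS6KB1 0.137, 0.341 and 0.429. Without the F1 pigs no probe of the table was called. LARP1 and MYC gave 0.14 (adjusted p = 0.159) and 0.12 (adjusted p = 0.454).

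Within breeds, the members' calls lay in F1. Between F1 HS and F1 TN pigs 75 of 293 member probes rose and 19 fell, where 20.8% and 17.9% of all probes did. Scaling the arrays to their 75th percentile gave 27 rises and 23 falls among the members, where 18.8% and 19.6% of all probes did. The excess of rises within F1 thus depends on that scaling. By the brightest probe 21 of 82 genes rose and 6 fell, where 23% and 20.4% of genes with a known symbol did, the falls being RPL17, RPL37, RPL38, RPS19, RPS27L and RPL13AP3. Apart from RPL38, with an F1 TN median of 14.61, these probes had low signals for members. Their F1 TN medians ran from 7.565 for RPS27L to 10.63 for RPS19, below the subunit means of 13.65 and 13.82. How well they read their genes was not tested. RPLP1 had 4 of 5 probes that fell within F1, by 0.56 to 0.74 on the log2 scale, while its brightest, the fifth, gave -0.42 ± 0.19 (SE, adjusted p = 0.0717).

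Within CR and within LW no member was called by limma, where 0% of all probes were. At an unadjusted p under 0.05 there were 6 of 293 member probes in CR and 10 in LW. Of all 39072 probes, 3466 in CR and 3404 in LW were under it, so the members' shares were below those of all probes. The median member difference was 0.06 in CR, 0.11 in F1 and 0.05 in LW, beside 0.03, 0.13 and 0.01 over all probes. The F1 median turned to -0.06 with 75th percentile scaling, where that of all probes was 0.18, and by the brightest probe it was 0.000827, with 41 of 82 genes above 0. The interaction of breed and climate called no member, where 0% of all probes were called, and the smallest adjusted p of a member was 0.278. At an unadjusted p under 0.05 there were 23 of 293 members, a count with no share of all probes at hand. The HS effect was thus not shown to differ between breeds. Without the F1 pigs the additive fit called no member and no other probe, and the member median was 0.06.

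With the erythroid list mean as a covariate no member probe was called in the additive fit, and 0.00768% of all probes rose. The T cell list mean left 8 rises and 2 falls, where 4.67% and 4.48% of all probes rose and fell. Within F1 the erythroid covariate left 1 rise and 3 falls, and the T cell covariate 4 rises and 3 falls. Of all probes 1.03% rose and 3.93% fell with the erythroid covariate, and 1.82% and 5.6% with the T cell covariate. With slide as a fixed block there were 71 rises and 7 falls, where 21.5% and 15.4% of all probes rose and fell. Within slide 1 the median member difference was -0.04, and it was 0.14, 0.06 and 0.08 within slides 2, 3 and 4; slide 5 holds no breed in both climates. Of the 18 genes that rose, 13, 18, 18 and 17 were positive within slides 1 to 4, in the pigs on which they were called. Leaving out the 2 arrays with the lowest share of probes above background, both F1 TN, left 39 rises and 5 falls. Of all probes 13.4% then rose and 11.3% fell.

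The breed comparisons called 1 member in all. RPS25, a small subunit protein used in initiation at internal entry sites, was higher in CR than in LW by 0.81 ± 0.21 on the log2 scale (SE, adjusted p = 0.0494), where 0.571% of all probes were higher and 0.507% lower. CR TN pigs gave 12.87, 13.38, 13.70, 14.08 and 14.30, and CR HS pigs ran from 12.41 to 14.26 (median 13.69). LW TN pigs ran from 12.05 to 13.40 (median 12.82) and LW HS pigs from 12.24 to 13.65 (median 12.75). The CR and LW ranges overlap. F1 pigs ran from 12.85 to 14.04 in TN and from 12.16 to 13.13 in HS, and differed from CR by -0.49 ± 0.21 (adjusted p = 0.894) and from LW by 0.32 ± 0.21 (adjusted p = 1). The call lies at the threshold: it was lost in 27 of 35 fits without 1 pig, with adjusted p up to 0.0987, and with slide as a fixed block (0.76 ± 0.22, adjusted p = 0.0927). F1 against CR and F1 against LW called no member, where 0.184% and 0.0256% of all probes were called. At an unadjusted p under 0.05 there were 31 and 21 of 293 member probes, where 1933 and 1751 of all 39072 probes were. The differences were above 0 for 53 and 60 of the 293 members, and for 50.1% and 49% of all probes. The members share the same pigs, and this lean was not tested.

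One RPL38 probe, A_72_P016041, fell into a lower and a higher level across pigs. Its signals ran from 10.63 to 11.97 in 27 pigs and from 12.69 to 13.78 in 8. The higher level was seen in 0 of 11 CR, 2 of 12 F1 and 6 of 12 LW pigs, with 3 LW pigs in each climate. Its CR minus LW difference, -0.89 ± 0.31 (SE, adjusted p = 0.202), did not pass the test, and the other RPL38 probe showed no such gap.

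**Figure D3:**
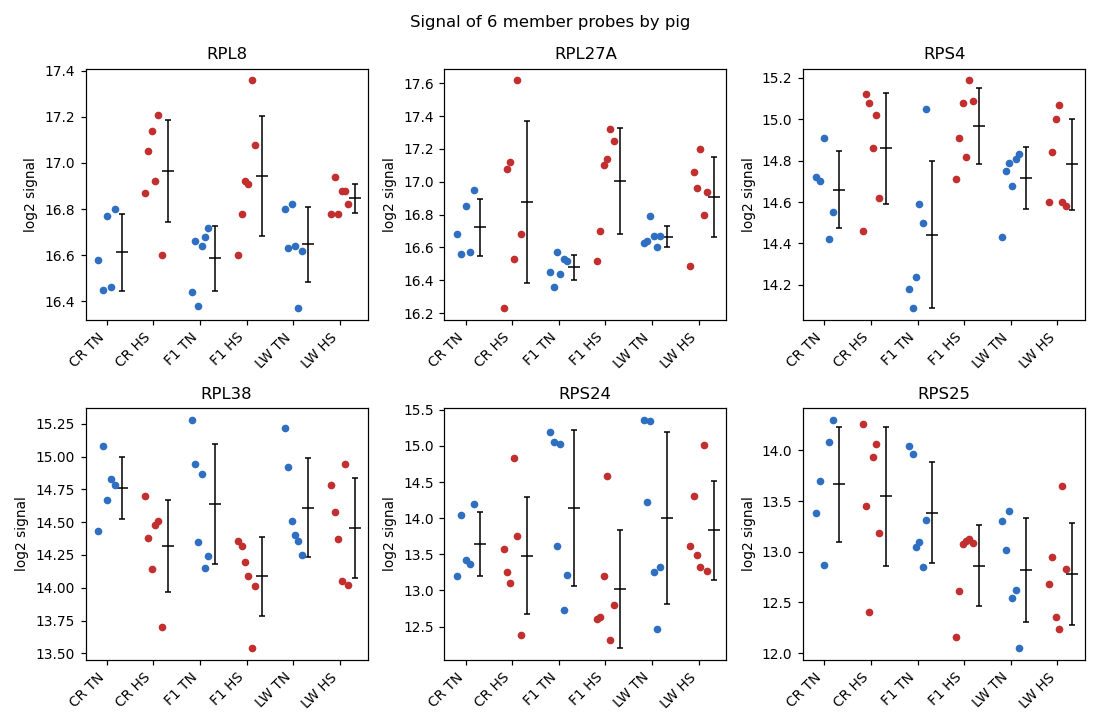
Log2 signal by pig (y axis) for 6 member probes in the 6 groups (x axis), TN in blue, HS in red, group mean ± SD in black. RPL8 and RPL27A have higher medians in HS in each breed, RPS4 in CR and F1 but not in LW (14.77 in TN, 14.72 in HS). RPL38 lies lower in CR and F1, RPS24 spreads over more than 3 log2 units (12.31 to 15.36), and RPS25 lies higher in CR than in LW with overlap.

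By the brightest probe, the 3 genes with the lowest HS minus TN differences, RPS24, RPS3A and RPL22, were also the 3 that varied most between pigs of one group. They were named after their values were seen. The SD within groups was 0.92 for RPL22, 0.89 for RPS24, 0.83 for RPS3A, 0.76 for RPL23, 0.70 for RPS27A, 0.68 for RPL36AL and 0.64 for RPL36A, against a median of 0.25 over the 82 genes and 0.27 over all probes. Across the 82 genes the SD and the HS minus TN difference had a Spearman correlation of -0.593, a description over probes that share the same 35 arrays. RPS24, mutated in some families with Diamond-Blackfan anaemia, gave 13.20, 13.37, 13.42, 14.04 and 14.19 in CR TN and 12.38 to 14.83 in CR HS. It ran from 12.73 to 15.19 in F1 TN, from 12.31 to 14.58 in F1 HS, from 12.46 to 15.36 in LW TN and from 13.27 to 15.01 in LW HS. Its groups overlap throughout, and the difference of -0.49 ± 0.29 (SE, adjusted p = 0.175) did not pass the test. RPS3A and RPL22 gave -0.46 ± 0.26 (adjusted p = 0.156) and -0.43 ± 0.29 (adjusted p = 0.234).

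**Figure D4:**
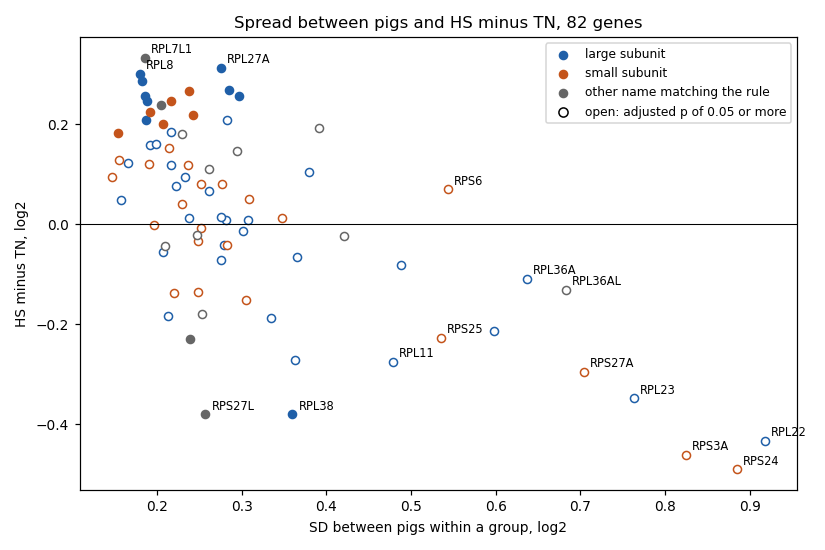
SD between pigs within a group (x axis, log2) against the HS minus TN difference (y axis, log2) for the brightest probe of 79 of the 82 genes, with filled points past the adjusted p threshold. Colours give the subunit. The genes of widest spread, RPL22, RPS24 and RPS3A, lie lowest and are open, and every filled point has an SD of 0.36 or less.

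The pigs of a group also shared part of this variation. With group means removed, the first principal component of the 82 genes held 29.9% of their variance and the second 21.9%, beside 24.5% on the first component of all probes. On it 76 genes had a loading of one sign and 6 the other. GC content of the probe ran from 28.3% to 60% over the members with a median of 45%, the same as the median of the 66 probes that rose and of the 7 that fell. Its Spearman correlation with the HS minus TN difference was 0.23 over the brightest probes of the 82 genes, 0.062 over 293 member probes and -0.0389 over all 39072.

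Where several probes carry one gene's name they did not always move together. Of 47 genes with more than 1 probe, 23 had probes whose within-group deviations correlated with a median r above 0.8, and 5 had a median r under 0.3. Many of these probes overlap: 158 of 258 share at least 20 bases with another probe of their gene, so they are not independent. RPL5, with 19 probes, had a median r of 0.961, and RPS3A, with 10, one of 0.988. All 17 RPL7 probes had positive differences, from 0.16 to 0.27, where 59.8% of all probes did. Of the 17, 11 rose, and 16 rose within F1, where 20.1% and 20.8% of all probes did. These are overlapping readings of 1 gene. Rises within F1 depend on the scaling, with 27 in place of 75 over all members under 75th percentile scaling.

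Within F1, RPL18 had 3 probes that rose, by 0.38 to 0.43, and 1, O14492, that fell by 0.38 ± 0.12 (SE, adjusted p = 0.011). That probe was dim, at a mean log2 signal of 6.06.

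The RPS29 probe A_72_P244677 was well above background on 4 of 6 F1 TN arrays and on 0 of 6 F1 HS arrays. Its mean log2 signals there were 5.62 in TN and 5.15 in HS, both dim, and limma gave an adjusted p of 0.000787. It was 1.36-fold lower in F1 HS, taking for each HS array the higher of its own signal and the lowest signal of a probe above background. The TN mean also holds arrays where the probe was dim, so this fold is not a bound. Of the 4 RPS29 probes only 1 fell within F1. The brightest had a median of 15.52 in both F1 groups.

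RPL6 showed the widest difference between probes of one gene. The probe at transcript base 622, A_72_P756548, fell by 0.82 ± 0.32 (SE, adjusted p = 0.0421), and its neighbour at 617 gave -0.40 ± 0.16 (adjusted p = 0.0551). At base 622 the 4 lowest pigs were LW HS replicate 5 at 7.74, F1 HS replicate 5 at 8.69, F1 HS replicate 6 at 9.42 and LW HS replicate 6 at 9.48. The median of all pigs was 11.8, and the next pigs, F1 HS replicates 2 and 3, stood at 10.69 and 10.70. At base 617 the same 4 pigs gave 10.33, 10.19, 10.54 and 10.89 against a median of 11.76. At base 644 they gave 12.88, 12.73, 13.03 and 13.28 against 13.68, and at base 855 they gave 15.88, 15.59, 15.82 and 16.09 against 15.82. The 4 pigs were thus far below the others in the probes printed above for starts 617 and 622, less so at starts from 644 to 692, and not at 387, 708, 730 or 855. The other RPL6 probes had HS minus TN differences that ranged from -0.19 to 0.12, none past the threshold. The 6 lowest pigs at base 622 were thus all HS. The probes at 617 and 622 share a run of 38 bases and differ in some bases before it, so they do not both follow one transcript sequence. Whether those bases bear on the low signals was not tested.

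**Figure D5:**
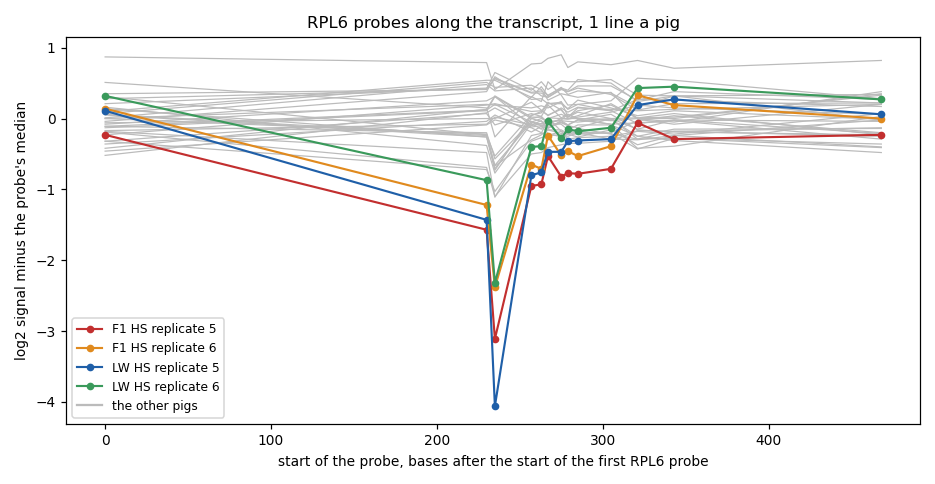
Log2 signal minus the probe's median over 35 pigs (y axis) for 13 RPL6 probes, placed by the distance in bases of their start from that of the first probe (x axis), with 1 line a pig. The 4 coloured HS pigs, at 9.48 or below at the probe starting at base 622, fall far under the rest there and lie among the other pigs (grey) at the first probe and at the last 3.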

How the data were processed

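Total RNA from blood of 35 pigs was hybridised on Agilent arrays, 1 pig an array, and read with Agilent Feature Extraction 10.10.1.1 per the submitters' processing notes. The authors deposited scanner intensity files and a log2 table of 39072 probes, made from median signals by quantile normalization; its filter is not given in the sources used here. Recomputed log2 values of the scanner intensity correlated with it at 0.999971. Members and gene lists were chosen with earlier results of these data known. Of 85 member names, 77 are current pig symbols, 1 is an older one and 7 were in neither reference table (assembly Sscrofa11.1).

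Every probe of the log2 table was fitted with limma 3.58.1 (R 4.3.3), breed and climate additive for HS minus TN and the breed contrasts, 6 group means for effects within breeds, with Benjamini-Hochberg adjustment over all probes and a threshold of 0.05, two-sided. The study's model also held pen, slaughter, father and mother, for which no labels were at hand. The fits here take the pigs as independent, so their adjusted p-values may be too small. With its own model the paper reports far fewer differential probes in blood than were called here. A gene was represented by its brightest probe. Named were the 8 largest rises and falls past the threshold, 4 each way per breed contrast, fixed genes of known role, all names outside the subunits, the 3 brightest and dimmest genes and genes called both ways; other probes and genes were named after their values were seen. Some genes that the rule names are not reported here. Each array carries 1 pig, so the number of arrays limits the precision. Slides 1 to 4 hold both climates of every breed. The fit was tested on simulated data. Alternatives were scanner values with and without a filter on probes well above background, scaling to the 75th percentile, normexp (offset 50), slide as a block, array weights, marker list covariates, 1 value per gene, no F1 pigs and each array left out.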

Additional observations from a re-analysis of the deposited data

Results flagged for a closer look

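In each group the gap between the most extreme pig and its neighbour was set against the range of the group, for 36 named genes and both subunit means. A pig stood apart in 12 of 228 groups, where chance gives about 1 in 20. In LW TN the highest pig stood apart for RPL7A (10.46 against 9.68 for the next, gap over range 0.897), RPL3 (13.22 against 12.65, 0.695) and RPL27A (16.79 against 16.67, 0.632). In F1 TN it did so for RPL18 (15.82 against 15.33, 0.681) and RPL10 (16.94 against 16.23, 0.664). In F1 HS it was RPL22L1 (5.95 against 5.63, 0.78) and RPL26L1 (15.31 against 14.32, 0.627), and in LW HS RPL22L1 (6.29 against 5.84, 0.634) and RPLP1 (17.14 against 16.55, 0.678). In CR TN the highest pig stood apart for RPL36AL (11.95 against 11.17, 0.78) and RPL9 (7.51 against 7.08, 0.729), and the lowest for RPL5 (14.57 against 14.97, 0.87).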

How the results depend on the processing

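The additive HS minus TN fit called 66 rises and 7 falls among the members. Rises numbered 22 with 75th percentile scaling, 8 with the T cell covariate, 17 with 1 value per gene (of 82), 39 without the 2 arrays of lowest share above background (chosen after seeing the data), and 0 with the erythroid covariate or without F1 pigs. In that order 19.5%, 4.67%, 19%, 13.4%, 0.00768% and 0% of all probes rose, or of all gene names for 1 value per gene. Falls numbered 11 with array weights, 2 with the T cell covariate, 3 with 1 value per gene, and 0 with the erythroid covariate or without F1 pigs. The shares of all that fell were 17.6%, 4.48%, 16.7%, 0% and 0% in that order. Within F1 (75 and 19) rises numbered 27 with 75th percentile scaling, 1 and 4 with the erythroid and T cell covariates, 20 with 1 value per gene and 35 without those 2 arrays, and falls 3, 3, 7 and 6 under the last 4 of these. The shares of all that rose within F1 were 18.8%, 1.03%, 1.82%, 19.9% and 8.33% in that order. Under the last 4, 3.93%, 5.6%, 20.3% and 13% fell. LW gave 3 calls with array weights in place of 0, and F1 minus CR gave 1. CR minus LW (1) gave 2 with the scanner values filtered, with normexp, with slide as a random block and with array weights, 0 with no filter and with slide as a fixed block, and 19 with the T cell covariate. The cause was not tested.

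Leaving out each pig gave 45 to 75 rises and 5 to 12 falls (12 without CR HS replicate 1), and within F1 49 to 89 rises (49 without F1 HS replicate 5 or 6) and 8 to 34 falls (34 without F1 HS replicate 4 or F1 TN replicate 5, and 8, 9, 10 and 10 without F1 HS replicate 5, F1 TN replicate 2, F1 TN replicate 4 and F1 HS replicate 6). In these fits 16.5% to 25% of all probes rose and 12.8% to 17.1% fell. Within F1 14.2% to 23.8% of all probes rose and 15% to 18.9% fell. CR minus LW gave 0 to 2, and CR, LW, the interaction, F1 minus CR and F1 minus LW stayed at 0. RPS20 changed sign with 75th percentile scaling (-0.0203), the member median did so within slide 1 (-0.0366), and the member median within F1 did so with 75th percentile scaling (-0.0551) and the T cell covariate (-0.0155). Of 20 named calls, 19 were lost with the erythroid covariate, 15 with the T cell covariate, 20 without F1 pigs and 9 with 75th percentile scaling. No paired analysis was possible because the replicate numbers follow accession order and the labels give no pairing of pigs.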
